A study of Mus musculus with 3 samples.

Results

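The miR-30 family, with both arms of its hairpins, was followed in cultured newborn mouse ovaries exposed to di (2-ethylhexyl) phthalate (DEHP), a plasticizer. The family was chosen by name from the list of mature miRNAs, after the opposite values of the arms of miR-30e were already known from these libraries. Its values between concentrations are therefore given as a description, with no test. The 9 members found, of 627 mature miRNAs in the table, were mmu-miR-30a-5p, mmu-miR-30a-3p, mmu-miR-30b-5p, mmu-miR-30b-3p, mmu-miR-30c-5p, mmu-miR-30d-5p, mmu-miR-30d-3p, mmu-miR-30e-5p and mmu-miR-30e-3p, written below without the species prefix. The 3p arms of the miR-30c hairpins, miR-30c-1-3p and miR-30c-2-3p, are outside the 9 and are given beside them to complete the hairpins. Ovaries of newborn CD1 mice were cultured for 3 days with the vehicle DMSO (0 μM DEHP), with 10 μM DEHP or with 100 μM DEHP. Many ovaries were pooled into 1 small RNA library for each concentration, so there are no replicates, and the 95% intervals below cover counting error only. No molecular identifiers are mentioned in the methods. Reads may thus be copies of the same molecule, and the intervals may be too narrow even for counting error. Concentration and library cannot be told apart.

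A miRNA hairpin is cut by Dicer into a duplex, and 1 strand of it, from the 5′ side (5p) or the 3′ side (3p), is usually kept by an Argonaute protein while the other is mostly lost. Bases 2 to 8 of the kept strand, the seed, pair with target mRNAs, so the arms of 1 hairpin have different targets. The 5p arms of the miR-30 family share 1 seed, are abundant in many tissues and are usually the kept strand. The mRNA of the autophagy gene Beclin 1 is a known target of miR-30a.

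RefSeq mature sequences (build GRCm38.p6) were at hand for 5 of the 9 members and for both 3p arms of miR-30c, and none was printed for the arms of miR-30b and miR-30d. They are shown because the arms of miR-30a and miR-30e, whose counts went apart, are nearly the same in sequence. The capitals mark the seed.
miR-30a-5p: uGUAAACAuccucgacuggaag
miR-30e-5p: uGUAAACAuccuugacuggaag
miR-30c-5p: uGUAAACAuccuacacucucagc
miR-30a-3p: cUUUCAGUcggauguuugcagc
miR-30e-3p: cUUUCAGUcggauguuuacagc
miR-30c-1-3p: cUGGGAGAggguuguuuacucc
miR-30c-2-3p: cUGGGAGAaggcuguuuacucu

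These 7 miRNAs carried 3 seeds, 1 for the 5p arms and 2 for the 3p arms. Counted from 1 at the 5′ end, miR-30a-5p and miR-30e-5p differ at 1 base (C13U, miR-30a first), and miR-30a-3p and miR-30e-3p also differ at 1 base (G18A). How reads that fit both were divided in the counting is not given in the sources used here, so the split between miR-30a and miR-30e is less certain than their sum. No other miRNA of the count table with a sequence had 1 of these 3 seeds.

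The hairpins of miR-30e and miR-30a are printed with both mature arms in capitals, to show the duplex from which the compared counts come.
Mir30e: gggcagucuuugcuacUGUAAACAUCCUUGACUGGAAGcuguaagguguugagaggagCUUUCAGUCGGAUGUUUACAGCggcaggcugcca
Mir30a: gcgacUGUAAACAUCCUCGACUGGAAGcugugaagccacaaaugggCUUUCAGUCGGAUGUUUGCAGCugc

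On GRCm38, the mm10 build named by the submitters, Mir30e lies at chr4:120772606-120772697 and Mir30c-1 at chr4:120769534-120769622, both on the minus strand, with 2983 bases between them and both within introns of Nfyc, a subunit gene of the CCAAT-binding factor NF-Y, in GENCODE M21. Mir30a lies at chr1:23272269-23272339 on the plus strand and overlaps no other annotated gene, and Mir30c-2 lies 19361 bases further, at chr1:23291701-23291784, across an exon of the long non-coding RNA gene Gm27028. Since miR-30c-5p is made from both Mir30c-1 and Mir30c-2, it filled 2 rows of the table under the same label. These rows differed by 5 counts at 0 μM, 5 at 10 μM and 0 at 100 μM, and the row with the higher total was used.

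The table listed only miRNAs with at least 10 counts at 0 μM, while those at 10 and 100 μM went down to 2 and 0 counts, so a miRNA that was low only at 0 μM could not be seen. Over the 627 miRNAs, 5253367 counts were listed for the library of 0 μM, 5064602 for 10 μM and 5952274 for that of 100 μM. The library of 100 μM DEHP stood apart, since its 10 most abundant miRNAs took 70.5% of the counts, against 45.4% and 45.6% in the others. Counts were therefore divided by the DESeq2 size factors (1.38, 1.35 and 0.546), which give the normalized counts below. The gonadal miR-202 arms, a check of the tissue, summed to 31188, 40382 and 19964 normalized counts at 0, 10 and 100 μM, and miR-124-3p, a marker of neurons, was not among the listed miRNAs. The other neuronal marker, miR-9-5p, was between 497 and 660 normalized counts, and the liver marker miR-122-5p between 10.4 and 16.0. The miR-290 cluster miRNAs of germ cells (5 of 5 in the table) summed to 2593, 1870 and 5494, the miR-126a arms of endothelium (2 of 2) to 46170, 52252 and 9855, red blood cell miRNAs (3 of 4) to 948, 1009 and 835, white blood cell miRNAs (4 of 4) to 218, 187 and 130.1, and muscle miRNAs (3 of 3) to 284, 214 and 480.0. At 100 μM the gonadal, endothelial and blood sums were lower than at 0 μM, as miR-30e-5p was. The gonadal arms went apart, with log2 ratios of -0.74 for miR-202-5p and 0.78 for miR-202-3p, and only their sum was lower. The liver value was 16.0 at 0 μM and 14.7 at 100 μM, too few counts to give a direction. With the size factors the germ cell, muscle and miR-9-5p values were higher, as miR-30e-3p was. Their median log2 ratios between 100 and 0 μM were 0.97, 0.44 and 0.37. When libraries were scaled to total counts instead, such ratios fell by nearly the same amount for every miRNA, with a median shift of -1.50. The direction of these higher marker values thus depends on the scaling, whereas miR-30e-3p stayed higher with total counts (2.18). The marker sums themselves were not rescaled. At 10 μM, where miR-30e-5p was lower and miR-30e-3p higher than at 0 μM, the endothelial sum was higher and the germ cell sum lower. The part of these cell types in the values below was not tested. In pooled whole ovaries, fewer cells of a type and less RNA per cell cannot be told apart.

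In the ovaries cultured without DEHP the 5p arms held nearly all miR-30 counts. miR-30a-5p was the most abundant, with 146987 counts, 2.80% of the library (exact binomial 95% interval 2.78% to 2.81%), and it was in place 11 of all miRNAs. It was followed by miR-30d-5p with 112931 counts, miR-30c-5p with 47517, miR-30e-5p with 37713 and miR-30b-5p with 7288. The 3p arms came after all of these, from 4356 counts for miR-30a-3p and 3570 for miR-30e-3p to 1008 for miR-30c-2-3p, 370 for miR-30d-3p, 238 for miR-30b-3p and 105 for miR-30c-1-3p. No exact Poisson intervals of neighbours in this order overlapped. All 9 members passed the minimum of a mean of 10 normalized counts.

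As a share of all counts the 9 members made up 6.87% (6.85% to 6.89%) without DEHP, 5.10% (5.08% to 5.12%) with 10 μM and 2.29% (2.28% to 2.31%) with 100 μM, in intervals that did not overlap. This share depends on the few miRNAs that filled the library of 100 μM. On the normalized scale the sum of the members was 261928, 191765 and 250166, with a log2 ratio of -0.07 between 100 and 0 μM that was 0.01 with TMM and -1.58 with total counts. The arms differed within it. The 5 members of the 5p side summed to 255735, 184257 and 190633 normalized counts, while the 4 of the 3p side summed to 6192, 7508 and 59533.

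**Figure D1:**
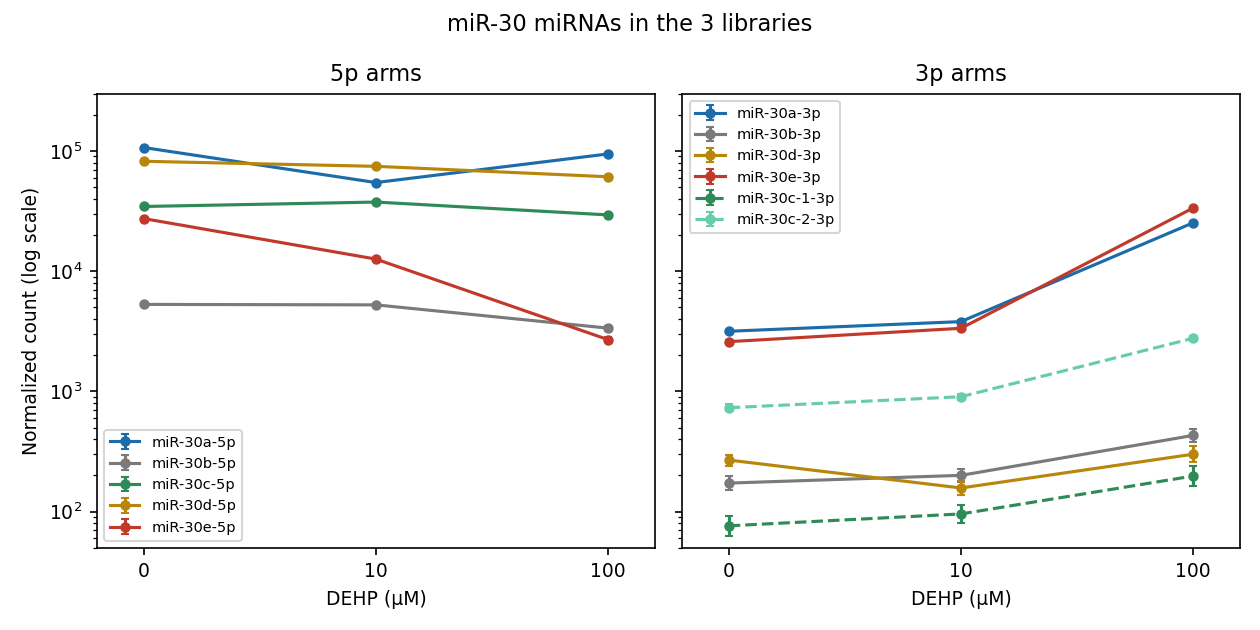
Normalized count (log axis) of each miR-30 miRNA against the DEHP concentration in μM, 5p arms on the left and 3p arms on the right, with exact Poisson 95% intervals (counting error only) that are mostly smaller than the points. From 0 to 100 μM, miR-30e-5p goes from 27365 to 2689 while miR-30e-3p goes from 2590 to 33534. With the size factors used here, the other 5p arms are at 100 μM within 1.58-fold of their value at 0 μM. With total counts the log2 ratios of these other 5p arms are between -2.17 and -1.69.

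Among the members the largest differences were those of miR-30e. miR-30e-5p, with the family seed of the 5p arms, had 37713 counts at 0 μM, 16972 at 10 μM and 1468 at 100 μM, which are 27365, 12591 and 2689 normalized counts. It was lower at each higher concentration, and the counting intervals did not overlap. Its log2 ratio between 100 and 0 μM was -3.35 (exact Clopper-Pearson 95% interval -3.42 to -3.27), a 10.2-fold lower level. The opposite was found for the 3p arm of the same hairpin, for miR-30e-3p had 3570, 4512 and 18304 counts, or 2590, 3347 and 33534 normalized counts. Its level was 12.9-fold higher at 100 than at 0 μM, a log2 ratio of 3.69 (3.64 to 3.75), and it was in place 3 from the highest of 587 miRNAs, where miR-30e-5p was in place 14 from the lowest.

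The sum of both arms of miR-30e was 29956, 15938 and 36223 normalized counts, which differed far less between 0 and 100 μM than either arm. Its log2 ratio was 0.27 with the size factors, -0.49 with totals without the 10 most abundant miRNAs and -1.24 with total counts, so its direction depends on the scaling. Within this sum the 3p arm had a share of 8.65% (exact binomial 95% interval 8.38% to 8.92%) without DEHP, 21.0% (20.5% to 21.6%) with 10 μM and 92.6% (92.2% to 92.9%) with 100 μM. The 5p arm had 10.6 times the counts of the 3p arm at 0 μM and 3.76 times at 10 μM, whereas at 100 μM the 3p arm had 12.5 times those of the 5p arm. The more abundant arm of miR-30e was thus the 5p arm at 0 and 10 μM and the 3p arm at 100 μM. Because both arms were counted in the same library, these shares need no scaling between libraries.

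miR-30a, the nearest relative of miR-30e in sequence, had a higher 3p arm at 100 μM as well, while its 5p arm was lower by far less than miR-30e-5p. miR-30a-3p had 4356, 5127 and 13792 counts at 0, 10 and 100 μM, or 3161, 3804 and 25268 normalized counts. Its level at 100 μM was 7.99-fold that at 0 μM, a log2 ratio of 3.00 (2.95 to 3.05). miR-30a-5p had 146987, 73481 and 51497 counts, or 106657, 54513 and 94345 normalized counts. It was lowest at 10 μM with the size factors, but with total counts it was lower at 100 than at 10 μM (log2 ratio -0.75). Between 100 and 0 μM its log2 ratio was -0.18 (-0.19 to -0.16), against -3.35 for miR-30e-5p, which differs from it at 1 base. The 3p share of miR-30a was 2.88% (2.79% to 2.96%), 6.52% (6.35% to 6.70%) and 21.1% (20.8% to 21.4%), so that its 5p arm was the more abundant one in each library.

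Since reads of miR-30a and miR-30e may be exchanged in the counting, their sums were also taken. Sequences of miR-30b and miR-30d were not at hand, so an exchange of reads with their arms is not covered by these sums. miR-30a-5p and miR-30e-5p together had 134022, 67104 and 97035 normalized counts, and miR-30a-3p with miR-30e-3p had 5751, 7151 and 58802. The 3p sum was higher at 100 than at 0 μM by a log2 ratio of 3.35 (1.84 with total counts), and the 5p sum differed by -0.47 (-1.98 with total counts). The 3p level was thus also higher at 100 μM in the sum, which needs no split between these hairpins, while a value as low as that of miR-30e-5p was not seen in the 5p sum, most of which was miR-30a-5p.

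**Figure D2:**
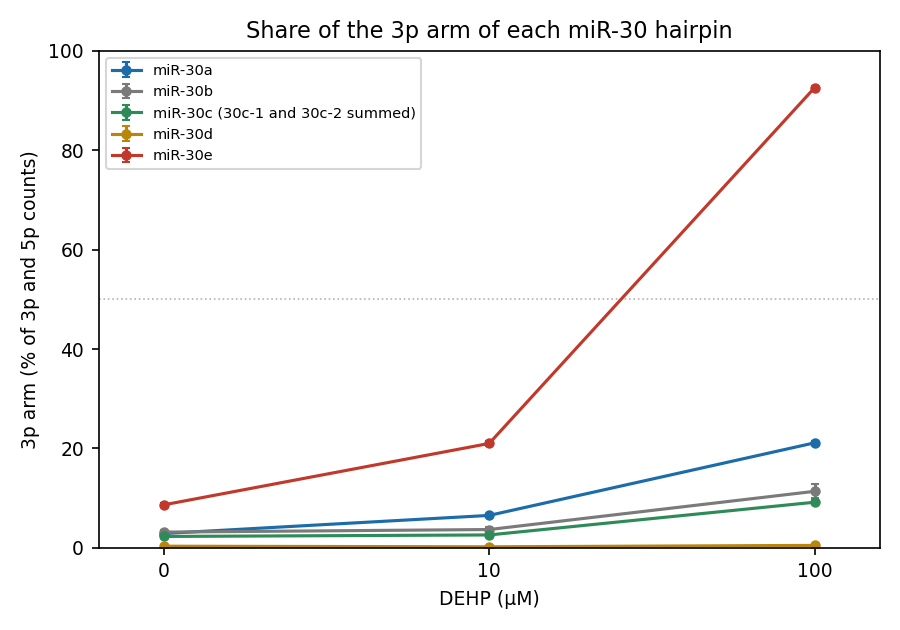
Share of the 3p arm (% of the 3p and 5p counts of a hairpin) against the DEHP concentration in μM for the 5 miR-30 hairpin groups, with exact binomial 95% intervals. The dotted line is at 50%, and miR-30e crosses it between 10 μM (21.0%) and 100 μM (92.6%) while miR-30a reaches 21.1%, miR-30b 11.4%, miR-30c 9.18% and miR-30d 0.491%.

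For miR-30b, miR-30c and miR-30d the 3p share was also higher at 100 than at 0 μM, with smaller differences. miR-30b-5p had 7288, 7065 and 1832 counts, a log2 ratio of -0.66 (-0.73 to -0.58) between 100 and 0 μM. miR-30b-3p had 238, 270 and 235, nearly equal raw counts that on the normalized scale were 173, 200.3 and 431, a log2 ratio of 1.32 (1.05 to 1.58) that was -0.20 when the libraries were scaled to total counts. The 3p share of miR-30b was 3.16% (2.78% to 3.58%), 3.68% (3.26% to 4.14%) and 11.4% (10.0% to 12.8%), with overlapping intervals at 0 and 10 μM.

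miR-30c-5p had 47517, 50584 and 16013 counts, with a log2 ratio of -0.23 (-0.26 to -0.21) between 100 and 0 μM. Of its 3p arms, miR-30c-2-3p had 1008, 1217 and 1510 counts and a log2 ratio of 1.92 (1.803 to 2.036), and miR-30c-1-3p had 105, 129 and 108 counts and a ratio of 1.37 (0.98 to 1.78), or -0.14 with total counts. Together they were 2.29% (2.16% to 2.43%), 2.59% (2.46% to 2.73%) and 9.18% (8.75% to 9.61%) of the miR-30c counts, and the intervals at 0 and 10 μM lay close to each other without overlap.

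miR-30d had the smallest shift of the hairpins. miR-30d-5p had 112931, 100266 and 33244 counts, with a log2 ratio of -0.43 (-0.45 to -0.41) between 100 and 0 μM, and miR-30d-3p had 370, 212 and 164 counts, with a ratio of 0.16 (-0.11 to 0.43), or -1.35 with total counts, whose first interval includes 0. Its 3p share was 0.327% (0.294% to 0.362%), 0.211% (0.184% to 0.241%) and 0.491% (0.419% to 0.572%), lowest at 10 μM. At 10 μM miR-30d-3p was lower than at 0 μM, with a log2 ratio of -0.77 (-1.02 to -0.52).

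The change of the log2 ratio of the 3p to the 5p arm, with 0.5 counts added to each, was then compared over hairpins. Between 100 and 0 μM it was 7.04 for miR-30e (counting interval 6.95 to 7.13), 3.18 for miR-30a (3.12 to 3.23), 2.11 for miR-30c with both 3p arms summed (1.996 to 2.222), 1.97 for miR-30b (1.70 to 2.24) and 0.59 for miR-30d (0.33 to 0.86). The intervals of miR-30b and miR-30c overlapped, and the others were apart. Of the 4 miR-30 hairpins whose arms carry the same name, miR-30e and miR-30a passed 2 toward the 3p arm. Among all 174 hairpins with both arms above the minimum, 19.5% passed 2 toward the 3p arm and 14.9% toward the 5p arm, so that changes of this size were common in the library of 100 μM. The median change was 2.57 over the 4 miR-30 hairpins and 0.44 over the 174 (interquartile range -1.09 to 1.72), and 4 of 4 against 100 of 174 were above 0. miR-30e had the largest change of the 174, followed by miR-708 with 6.61, and miR-30a was in place 17. The more abundant arm was another one at 100 than at 0 μM in 13.8% of the hairpins, and among the miR-30 hairpins in miR-30e alone of the 4.

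**Figure D3:**
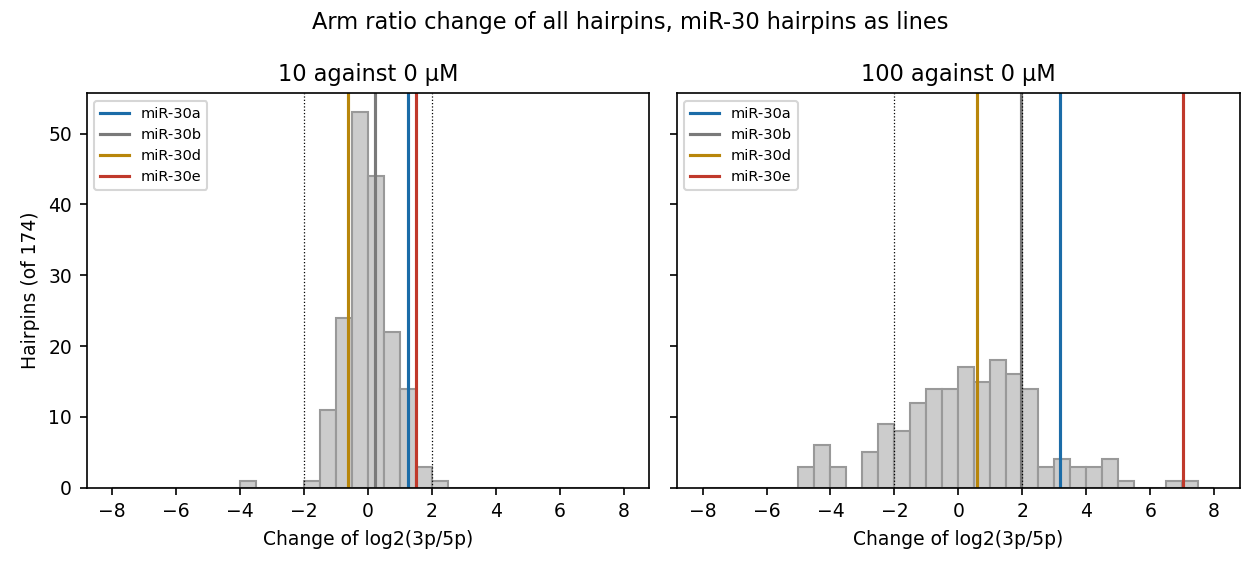
Histograms of the change of log2(3p/5p) over 174 hairpins (number of hairpins per bin of the change), 10 against 0 μM on the left and 100 against 0 μM on the right, with miR-30a, miR-30b, miR-30d and miR-30e as coloured lines and dotted lines at 2 and -2. At 100 μM the distribution is wide and miR-30e stands at its upper end with 7.04, while at 10 μM miR-30e (1.49) and miR-30a (1.24) stand on the right side of a narrow distribution.

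At 10 μM the arms of miR-30e and miR-30a differed from 0 μM in the direction seen at 100 μM. The change of the log2 arm ratio between 10 and 0 μM was 1.49 for miR-30e (1.42 to 1.56), in place 5 of 174, and 1.24 for miR-30a (1.18 to 1.29), in place 11. Both came mainly from the 5p arm, since miR-30e-5p had a log2 ratio of -1.12 (-1.15 to -1.09) and miR-30a-5p one of -0.97 (-0.98 to -0.96), and the 3p arms had 0.37 (0.31 to 0.43) and 0.27 (0.21 to 0.33). In the list of all 587 miRNAs these 5p values were in places 27 and 33 from the lowest. The other 5p arms differed little, with log2 ratios of -0.14 for miR-30d-5p, -0.01 for miR-30b-5p and 0.12 for miR-30c-5p. For miR-30b (0.23), miR-30c (0.18) and miR-30d (-0.63) the arm ratio changed less, and the interval of miR-30b (-0.03 to 0.48) includes 0.

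None of the 9 members passed a log2 ratio of 2 between 10 and 0 μM in either direction, where 0.00% of the 587 miRNAs passed it upward and 0.681% downward. The member nearest to the threshold was miR-30e-5p with -1.12. No miR-30 hairpin passed a change of 2 in the arm ratio, which 0.575% of the hairpins did toward the 3p arm and 0.575% toward the 5p arm. A swap of the more abundant arm between 0 and 10 μM was found in 3.45% of the hairpins and in none of the miR-30 hairpins.

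Between 100 and 0 μM, 2 of the 9 members (miR-30a-3p and miR-30e-3p) were beyond a log2 ratio of 2 upward, where 10.4% of all miRNAs were, and 1 (miR-30e-5p) was beyond it downward, where 9.37% were. These are the contrasts known when the family was chosen, and nothing is read from the counts. The nearest to the threshold among those beyond it was miR-30a-3p with 3.00, and the nearest below it were miR-30c-2-3p with 1.92 and, of the members, miR-30b-3p with 1.32 (-0.20 with total counts). The median log2 ratio was -0.43 over the 5 members of the 5p side and 2.16 over the 4 of the 3p side. Over all miRNAs it was -0.17 for the 270 with names in 5p and 0.25 for the 274 with names in 3p, with interquartile ranges of -1.15 to 0.59 and -0.93 to 1.26. With the size factors the 5 of the 5p side were below 0 and the 4 of the 3p side above 0, but with total counts miR-30b-3p and miR-30d-3p were below 0 too.

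**Figure D4:**
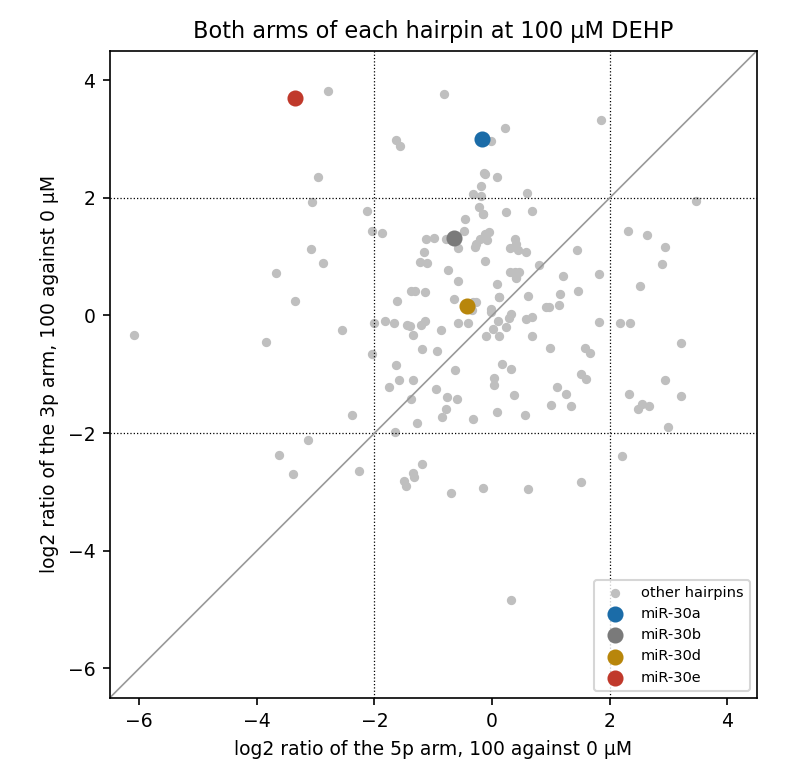
The log2 ratio between 100 and 0 μM of the 3p arm against that of the 5p arm for 174 hairpins, with the miR-30 hairpins coloured, dotted lines at 2 and -2 and a line of equal ratios. miR-30e lies in the upper left corner at -3.35 for the 5p and 3.69 for the 3p arm, and miR-30a lies above the line at -0.18 and 3.00.

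Both arms of miR-30e passed 2 in opposite directions. This was so for 4 of the 174 hairpins (2.30%). Besides miR-30e they were miR-708, with -2.79 for the 5p and 3.82 for the 3p arm, miR-140, with -2.96 and 2.35, and miR-380, in which the 5p arm had 2.21 and the 3p arm -2.39.

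The step from 10 to 100 μM held most of the difference of the 3p arms. From 10 to 100 μM, miR-30e-3p had a log2 ratio of 3.32 (3.28 to 3.37) and miR-30a-3p one of 2.73 (2.69 to 2.78), and miR-30e-5p had one of -2.23 (-2.30 to -2.15). These 3 were the members beyond 2, where 12.3% of all miRNAs were beyond it upward and 8.69% downward. miR-30a-5p was higher at 100 than at 10 μM, with 0.79 (0.78 to 0.81) by the size factors, and lower with total counts (-0.75) or with totals without the 10 most abundant miRNAs (-0.014). The arm ratio of miR-30e changed by 5.55 (5.46 to 5.64) and was the only one of the 4 beyond 2, while 20.7% of the hairpins were beyond 2 toward the 3p arm and 17.2% toward the 5p arm. That of miR-30a changed by 1.94 (1.89 to 1.99), and those of miR-30b, miR-30d and miR-30c by 1.75, 1.22 and 1.92. This comparison and that with 0 μM share the library of 100 μM, so they are not independent.

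The order of the members and the 3p arms of miR-30c, 11 miRNAs in all, differed between the libraries. At 10 μM miR-30d-5p, with 100266 counts, was above miR-30a-5p, with 73481. At 100 μM miR-30a-5p was first again and miR-30e-3p was the third, above miR-30c-5p and miR-30a-3p, while miR-30e-5p, the fourth at 0 μM, was the eighth. Its 1468 counts and the 1510 of miR-30c-2-3p had overlapping Poisson intervals, as had miR-30b-3p and miR-30d-3p at 10 μM.

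The size of the log2 ratios of single arms and of sums at 100 μM, and the direction of the less abundant 3p arms, depend on how the libraries were scaled, while the arm ratios do not. When total counts were used instead, the median of all log2 ratios of 100 against 0 μM shifted by -1.50, and the split of all miRNAs beyond 2 went from 61 higher and 55 lower to 4 higher and 208 lower. With total counts miR-30e-3p had 2.18 and miR-30e-5p -4.86, both still beyond 2 in the same directions. miR-30a-3p had 1.48, no longer beyond 2, and miR-30b-5p had -2.17. A scaling moves the log2 ratio of every miRNA by nearly the same amount, so the distances between members stay as above. miR-30b-3p (-0.20) and miR-30c-1-3p (-0.14) changed sign, and miR-30d-3p, whose interval included 0, had -1.35.

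**Figure D5:**
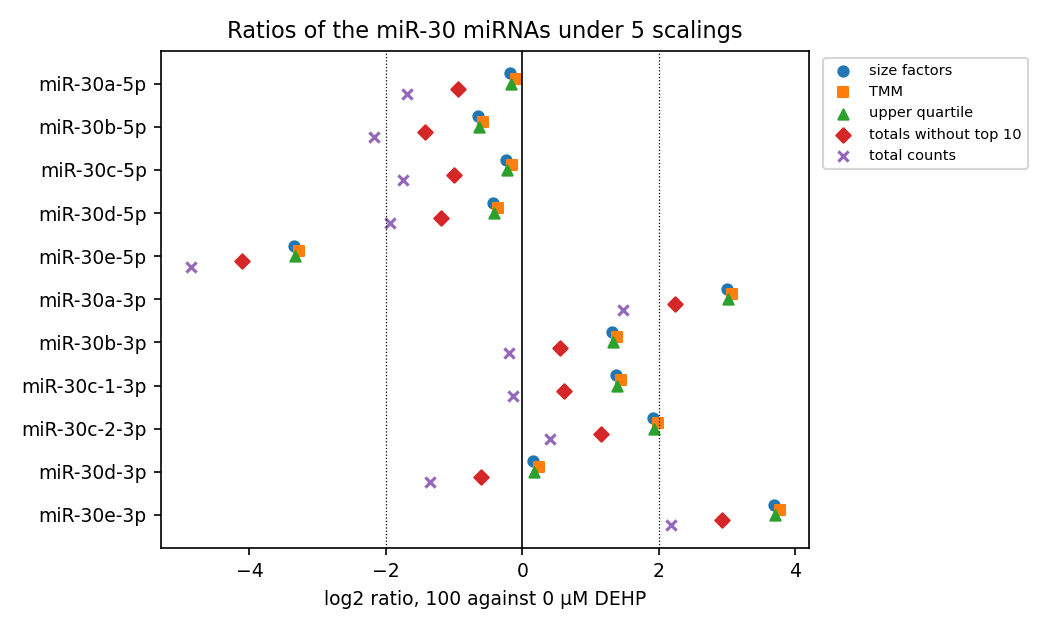
The log2 ratio between 100 and 0 μM of each miR-30 miRNA (rows) under 5 scalings of the libraries (symbols), with dotted lines at 2 and -2. Total counts and totals without the 10 most abundant miRNAs place all miRNAs further to the left, and miR-30e-5p is below -2 and miR-30e-3p above 2 under each of the 5.

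The miRNAs with the pattern nearest to that of each miR-30e arm were found by the Euclidean distance in the pair of log2 ratios at 10 and 100 μM against 0 μM, over 3 libraries. Nearest to miR-30e-5p were miR-34b-5p (distance 0.31), with 2719, 1098 and 127 counts, miR-32-5p (0.40), with 1391, 531 and 43 counts, and miR-665-3p (0.47), with 132, 82 and 5 counts. Nearest to miR-30e-3p outside the family were miR-7068-3p (0.30), with 10, 15 and 47 counts, miR-28a-3p (0.45), with 975, 905 and 5266, and miR-493-5p (0.49), with 154, 206 and 566. The distance to miR-30a-3p was 0.70. With counts as low as those of miR-7068-3p and miR-665-3p, the nearness is uncertain by counting error alone.

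In sequence, the matched 3p arms of the family share a C as the first base and the 5p arms a U. The first and last bases were looked at after the values were seen, and the groups below include the matched family members. Of the 497 miRNAs above the minimum that had a sequence, the 103 that begin with C had a median log2 ratio of 0.57 between 100 and 0 μM (interquartile range -0.78 to 1.44), against -0.03 for the 216 with U (-1.10 to 1.03), -0.17 for the 133 with A and -0.22 for the 45 with G. Among names in 3p the 65 that begin with C had a median of 0.73, and among names in 5p the 31 that begin with C had -0.14. At 10 μM the medians by first base were between 0.02 and 0.04. By the last base, the median log2 ratio between 100 and 0 μM was 0.35 for C, 0.12 for A, -0.18 for G and -0.17 for U. miR-30e-3p and miR-30a-3p end in C, and miR-30e-5p and miR-30a-5p in G. miR-30e-3p and miR-30a-3p lie above the upper quartile of the miRNAs that begin with C, and miR-30e-5p lies below the lower quartile of those with U. A link between these bases and the values was not tested.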

How the data were processed

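Small RNA of newborn CD1 mouse ovaries cultured with DEHP was sequenced on an Illumina instrument, 1 library for each of 3 concentrations. The authors trimmed the reads, aligned them to the mouse genome (bowtie2) and quantified mature miRNAs with miRDeep2, and the deposited values are raw read counts per mature miRNA and precursor. The submitters' processing notes name DESeq2 and the build mm10. The release of the miRNA annotation and the treatment of mismatches are not given in the sources used here. The members and lists were chosen with earlier results of these data known.

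The 961 rows were reduced to 627 mature miRNAs, taking the row with the highest total for a miRNA of several precursors. DESeq2 1.42.0 (R 4.3.3) gave median-of-ratios size factors, by which the counts were divided. Log2 ratios, with 0.5 added to each normalized count, were computed where the mean was at least 10, which 587 miRNAs reached. Intervals of ratios came from the exact Clopper-Pearson interval (95%) of the split of the counts, shares from exact binomial intervals, and counts from exact Poisson intervals, with scipy 1.17.1. For 174 hairpins with both arms above the minimum, the log2 ratio of 3p to 5p counts was taken within each library, with 0.5 counts added to each arm and an interval from the counting error. A log2 ratio or change of 2 was the threshold of size. With 1 library per concentration no test between concentrations was possible, and no p-value is given. The calculations were tested on simulated data.

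Named were the 9 members, the 3p arms of miR-30c, miRNAs with the seed of a member, the 5 hairpins with the highest and the 5 with the lowest change of arm ratio, the 3 miRNAs nearest in pattern to each arm of miR-30e, the 3 most abundant miRNAs where they bear on the scaling, and the marker lists for gonad, germ cell, endothelium, blood, liver, neuron and muscle. Of the 627 miRNAs, 529 were matched by name to RefSeq sequences of GRCm38.p6. Other scalings came from edgeR 4.0.16 (TMM, upper quartile), from total counts and from totals without the 10 most abundant miRNAs.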

Additional observations from a re-analysis of the deposited data

How the results depend on the processing

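No paired analysis was possible because each concentration had 1 library, and for the same reason no library could be left out. The changes of arm ratio of the miR-30 hairpins kept their direction and side of the threshold with 1 count added and with precursor rows summed. Of the single log2 ratios under the 4 scalings, with 1 count added and with rows summed, 122 moved by less than their counting interval, 69 by more, and 7 changed direction. With total counts, which moved the median of all miRNAs by -1.50 (100 against 0 μM) and -1.53 (100 against 10 μM), miR-30b-3p was -0.20 and miR-30c-1-3p -0.14 against 0 μM, and miR-30a-5p was -0.75, miR-30b-3p -0.43, miR-30d-3p -0.60 and miR-30c-1-3p -0.49 against 10 μM. Members beyond 2 were then 1 higher and 2 lower against 0 μM, and 0 higher and 2 lower against 10 μM. Without the 10 most abundant miRNAs, which moved these medians by -0.76 and -0.80, miR-30a-5p was -0.014 and 1 member was higher against 10 μM. All miRNAs beyond 2 against 0 μM went from 61 higher and 55 lower to 4 and 208 with total counts and to 23 and 128 without the top 10, and against 10 μM to 8 and 221 and to 24 and 117. In scalings of sums that were added after the data were seen, both arms of miR-30e together were -1.24 with total counts and -0.49 without the top 10 against 0 μM, and the 9 members together 0.012 with TMM. TMM (median moved by 0.08) and the upper quartile (0.01) changed no count of members beyond 2.

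With a threshold of 1, 1 member was lower and 0 higher at 10 μM, where 30 and 9 of the 587 miRNAs were. Of the 174 hairpins, those toward the 3p and 5p arm were then 18 and 13 at 10 against 0 μM. They were 68 and 46 at 100 against 0 μM, and 71 and 50 at 100 against 10 μM. With a mean of at least 100 and the threshold of 2, they were 20 and 16 at 100 against 0 μM and 20 and 19 at 100 against 10 μM. None went toward the 3p arm at 10 μM (0), and 15 swapped arms at 100 μM. This minimum leaves fewer hairpins than 174, and shares of that smaller set were not computed, so a lower count is not a smaller share. At 10 μM 2 hairpins went toward the 3p arm with rows summed, and 2 with no minimum. The family's share of the counts was 5.91%, 4.45% and 2.23% with rows summed, and 12.3%, 9.28% and 6.93% with the 10 most abundant miRNAs left out of the denominator. The cause was not tested. Pairing each row of miR-30c-5p with its own hairpin was not run, because both rows carry the same label. Low counts limit miR-30b-3p, miR-30d-3p and miR-30c-1-3p, and the lack of replicates limits all differences.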

Other observations

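Outside the family, other hairpins had arm changes of similar size in the library of 100 μM. miR-708 had 57.7% of its counts on the 3p arm at 0 μM, 54.9% at 10 μM and 99.3% at 100 μM, a change of the log2 arm ratio of 6.61 (6.38 to 6.84) from 0 to 100 μM. The 3p arm of miR-140 went from 93.3% to 99.8%, a change of 5.30 (4.97 to 5.63), and that of miR-143, an abundant miRNA of smooth muscle, from 99.8% to 100.0%, a change of 4.97. miR-33 had 46 counts on the 5p arm and 32 on the 3p arm at 0 μM and 0 and 10 at 100 μM, too few for a ratio (3p share 41.0% and 100%, exact interval at 100 μM from 69.2%).

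The 5p arm gained share in others. The 3p arm of miR-200a, of the epithelial miR-200 family, went from 97.4% at 0 μM to 61.1% at 100 μM, a change of -4.58 (-4.88 to -4.28), and that of miR-380 from 30.9% to 1.79%, a change of -4.59. miR-10b, the most abundant miRNA of each library, had 1143 counts of its 3p arm at 0 μM and 122 at 100 μM beside 398751 and 1250029 of its 5p arm, a change of -4.87. let-7i had 221 and 12 counts of its 3p arm beside 194533 and 219064 of its 5p arm, a change of -4.32. miR-465d had 19 counts of its 3p arm and 12 of its 5p arm at 0 μM, and 0 and 6 at 100 μM, too few for a ratio. At 10 μM the changes of miR-708, miR-140, miR-143, miR-10b, miR-380, miR-200a and let-7i were between -0.45 and -0.04, against 1.49 for miR-30e.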
